A study of Mus musculus with 9 samples.

Results

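Whole-kidney RNA was followed for the enzymes of glycolysis and the carrier by which glucose enters cells. The 10 genes were chosen by symbol: the glucose carrier Slc2a1, the hexokinases Hk1 and Hk2, the phosphofructokinases Pfkl and Pfkp, aldolase Aldoa, enolase Eno1, pyruvate kinase Pkm (listed in the deposited tables under its older symbol Pkm2) and the lactate dehydrogenases Ldha and Ldhb. They are 10 of the 22637 symbols in the tables, and all 10 were among the 17315 genes left by a filter on low counts. The study sequenced whole-kidney mRNA from mice of strain 129X1/SvJ at 9 weeks of age, in 3 groups of 3 libraries. KO_antimiR21 mice were Col4a3-/- and received an inhibitor of the microRNA miR-21. KO_PBS mice were Col4a3-/- and received PBS, and WT mice were wild type with no treatment, so WT kidneys had no PBS injection either. Col4a3 encodes a chain of the type IV collagen of the glomerular basement membrane, and its loss is used as a model of Alport syndrome, a hereditary kidney disease. Whether each library is a different animal is not stated in the labels. The deposited library names each begin with a different number, which no source used here explains. The p-values measure the spread between libraries, which may be technical. In WT it is not technical alone, since the WT libraries differed in sex (below).

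Glycolysis splits glucose into pyruvate in the cytosol. Hexokinase traps glucose as glucose 6-phosphate, phosphofructokinase commits the sugar to breakdown, aldolase and enolase act in the middle and lower steps, pyruvate kinase makes pyruvate, and lactate dehydrogenase converts pyruvate to lactate and back. In the kidney, proximal tubule cells burn mainly fatty acids and make glucose, whereas distal segments, and immune cells and fibroblasts that gather in injured tissue, use more glycolysis.

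Total expected counts were 26448275 to 31786624 per library. Col4a3 itself was at 70.6 to 138 CPM (counts relative to the scaled library total) in KO_antimiR21 and 44.3 to 94.3 CPM in KO_PBS, against 257 to 371 CPM in WT. Y-linked transcripts summed to 103 to 115 CPM in the KO_antimiR21 libraries and 102 to 110 CPM in the KO_PBS libraries. Among WT they summed to 118 CPM in WT 2 but to 0.926 CPM in WT 1 and 1.51 CPM in WT 3, so 2 WT libraries were female by this measure and the other 7 libraries male. The deposited library names hold the letter F for WT 1 and WT 3 and M for WT 2, and no such letter for the knockout libraries. They also carry a code that no source used here explains, L5 in the 3 KO_antimiR21 libraries and KO_PBS 3 and L4 in the others. With sex as a covariate, or in male libraries only (which leaves WT 2 alone in WT), edgeR called 0 of the genes tested in either comparison with WT. At an unadjusted p under 0.05 there were 2115 genes with sex as a covariate and 2192 in male libraries in KO_antimiR21 over WT, and 4389 and 4396 genes in KO_PBS over WT. All 6 knockout libraries were male by this measure, and in WT only WT 2 was, so genotype and sex cannot be well separated here. Every call against WT below comes from a fit without sex, and each edgeR call among them was lost with sex as a covariate.

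Hk2, Pfkl and Pkm2 were the members that passed the test in KO_PBS over WT, Hk2 higher and Pfkl and Pkm2 lower, by the edgeR quasi-likelihood test with Benjamini-Hochberg adjustment over all genes at 0.05. Among all genes tested, 14.6% were called higher and 9.85% lower in that comparison, so 1 higher and 2 lower of 10 members is near the background. Hk2 and Pfkp did not overlap with WT and were higher, and Hk1, Pfkl, Aldoa and Pkm2 did not overlap and were lower, against 22.6% and 20.5% of all genes. At an unadjusted p under 0.05 there were 5 members, against 37% of all genes. The median log2 fold change was -0.09 over the members and -0.03 over all genes. In KO_antimiR21 over KO_PBS, edgeR called 0 of 17315 genes, 0% in either direction, so 0 calls among the members is the background, and 0 members had an unadjusted p under 0.05, against 6.95% of all genes. Adjusted p-values there ran from 0.753 to 0.999 and all 10 members overlapped between the groups, where 3.83% of genes were wholly higher and 6.85% wholly lower. DESeq2 and limma called 0 members there too. KO_antimiR21 over WT gave 0 edgeR calls among the members, against 6.72% of genes higher and 0.427% lower, and 3 members had an unadjusted p under 0.05, against 20.2% of genes. Hk2 lay wholly above WT there and Slc2a1, Pfkl and Pkm2 wholly below, against 14.6% and 9.83% of genes. DESeq2 called Hk2 higher and Pkm2 lower in that comparison, and limma called Hk2 higher. The 3 comparisons share libraries, so they are not independent of each other.

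**Figure D1:**
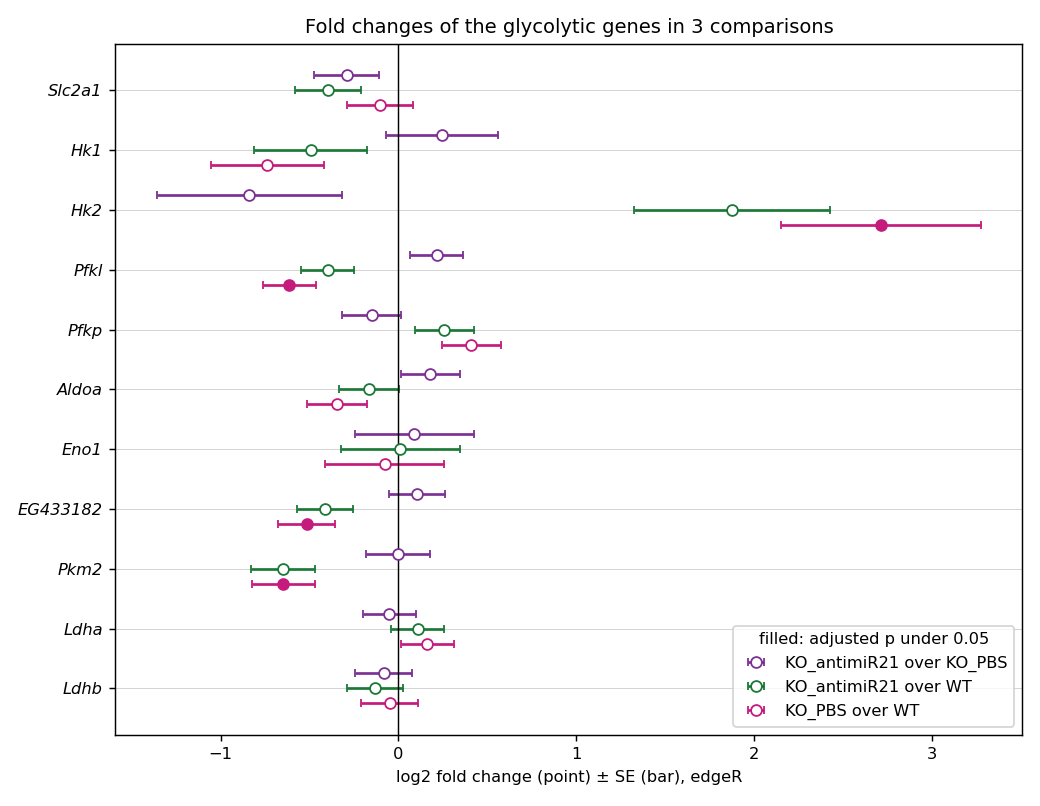
Log2 fold change (x axis, point) with its standard error (bar) of the 10 members and the EG433182 row (y axis) in the 3 comparisons, from edgeR. Filled points passed an adjusted p of 0.05: Hk2, at 2.71, stands far to the right in KO_PBS over WT, Pfkl, EG433182 and Pkm2 lie between -0.65 and -0.52, and every point of KO_antimiR21 over KO_PBS is open.

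Slc2a1, which encodes GLUT1, the carrier for basal glucose uptake in many cell types, was not called in any comparison. Its values were 58.3, 65.9 and 62.0 CPM in KO_antimiR21 kidneys, 93.2, 78.6 and 56.1 CPM in KO_PBS kidneys and 79.5, 72.6 and 92.7 CPM in WT kidneys. All 3 KO_antimiR21 libraries were below all 3 WT libraries, while the KO_PBS libraries held both the lowest and the highest value of all 9. The log2 fold change was -0.40 ± 0.19 (SE; adjusted p = 0.279) in KO_antimiR21 over WT and -0.29 ± 0.19 (adjusted p = 0.755) in KO_antimiR21 over KO_PBS. In KO_PBS over WT it was -0.10 ± 0.18 (adjusted p = 0.739). Its sign there turned in 6 of 22 alternatives, among them scaling by library size only and the fits with sex or library code as a covariate.

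Hk2, the inducible hexokinase that is scarce in normal kidney, had the largest fold change of the 10 members. It stood at 5.74, 9.41 and 10.2 CPM in KO_antimiR21 kidneys, 20.1, 15.1 and 10.1 CPM in KO_PBS kidneys and 1.39, 4.53 and 0.965 CPM in WT kidneys. Every knockout library lay above every WT library, and the highest WT value was the male library, WT 2. In KO_PBS over WT, Hk2 rose 6.56-fold (log2 fold change 2.71 ± 0.56, adjusted p = 0.00995). KO_antimiR21 over WT was 3.67-fold (1.88 ± 0.55, adjusted p = 0.0830), which edgeR did not call and DESeq2 (adjusted p = 0.00705) and limma (adjusted p = 0.0449) did. KO_antimiR21 over KO_PBS was -0.84 ± 0.52 (adjusted p = 0.753) and the groups overlapped, since the lowest KO_PBS library, KO_PBS 3, lay just under the highest KO_antimiR21 library. WT values rest on 24 to 113 expected counts a library, against 325 to 732 in KO_PBS. Leaving out any 1 library kept the KO_PBS call, at 2.32 to 3.70, and the highest value came without WT 2. Without WT 2, edgeR also called KO_antimiR21 over WT (2.86, adjusted p = 0.00817), where the adjusted p over 21 alternatives ran from 0.00705 to 0.537. The KO_PBS estimate was 1.74 in the fit with sex (adjusted p = 0.0904), and with male libraries only 1.76 (adjusted p = 0.104), the highest p of its 22 alternatives.

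Hk1, the broadly expressed hexokinase bound to mitochondria, had an estimate of the opposite sign that did not pass the test. It measured 56.3, 114 and 120 CPM in KO_antimiR21 kidneys, 55.2, 85.8 and 104 CPM in KO_PBS kidneys and 164, 128 and 116 CPM in WT kidneys. The KO_PBS libraries were all below WT, and replicate 1 was the lowest library in both knockout groups. Its log2 fold change in KO_PBS over WT was -0.74 ± 0.32 (adjusted p = 0.126), and 0.24 ± 0.32 (adjusted p = 0.913) in KO_antimiR21 over KO_PBS.

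The ratio of Hk2 to Hk1 counts within a library, which needs no scaling between libraries, was 0.102, 0.0828 and 0.0849 in KO_antimiR21 kidneys, 0.363, 0.176 and 0.0973 in KO_PBS kidneys and 0.00847, 0.0355 and 0.00829 in WT kidneys. Transcripts of the 2 genes differ in length, so the ratio is compared between libraries and is not a ratio of molecules. Every knockout library exceeded every WT library. The mean log2 ratio differed by 2.72 in KO_antimiR21 over WT and by 3.76 in KO_PBS over WT, each with an exact two-sided permutation p of 0.1, the smallest that 3 against 3 can give (0.225 adjusted over the 9 ratio tests). KO_antimiR21 over KO_PBS differed by -1.04 (exact permutation p = 0.2, 0.36 adjusted).

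Pfkl and Pfkp encode the liver and platelet types of phosphofructokinase, and their estimates had opposite signs in KO_PBS over WT, with only Pfkl passing the test. Pfkl was at 77.6, 83.4 and 99.0 CPM in KO_antimiR21 kidneys, 62.7, 77.5 and 83.9 CPM in KO_PBS kidneys and 117, 106 and 119 CPM in WT kidneys. Both knockout groups lay wholly below WT. In KO_PBS over WT, Pfkl fell by 0.61 ± 0.15 on the log2 scale (adjusted p = 0.0181), which is 0.654 of the WT level. KO_antimiR21 over WT was -0.40 ± 0.15 (adjusted p = 0.168) and KO_antimiR21 over KO_PBS 0.21 ± 0.15 (adjusted p = 0.778). The KO_PBS call was lost without WT 1 (adjusted p = 0.0507), without KO_PBS 1 (0.0612), without KO_PBS 2 (0.0529) and with library size as the only scaling (0.107), and the adjusted p over 22 alternatives ran from 0.00153 to 0.228.

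Pfkp was at 94.9, 144 and 97.0 CPM in KO_antimiR21 kidneys, 125, 124 and 124 CPM in KO_PBS kidneys and 97.8, 93.5 and 89.9 CPM in WT kidneys. All 3 KO_PBS libraries lay above WT and within a CV of 0.627%, while KO_antimiR21 2 was above all others and the other 2 KO_antimiR21 libraries were near WT. KO_PBS over WT was 0.41 ± 0.17 (adjusted p = 0.108), and leaving out KO_antimiR21 2, which shares the estimate of spread, gave an adjusted p of 0.0264, the lowest of 22 alternatives that reached 0.373. The Pfkp to Pfkl count ratio was 1.22, 1.73 and 0.979 in KO_antimiR21 kidneys, 1.997, 1.60 and 1.48 in KO_PBS kidneys and 0.833, 0.884 and 0.752 in WT kidneys. No WT library reached the ratio of any knockout library. The mean log2 ratio differed by 1.03 in KO_PBS over WT and 0.63 in KO_antimiR21 over WT (exact permutation p = 0.1 each, the smallest possible, 0.225 adjusted), and by -0.40 in KO_antimiR21 over KO_PBS (exact permutation p = 0.3, 0.386 adjusted).

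**Figure D2:**
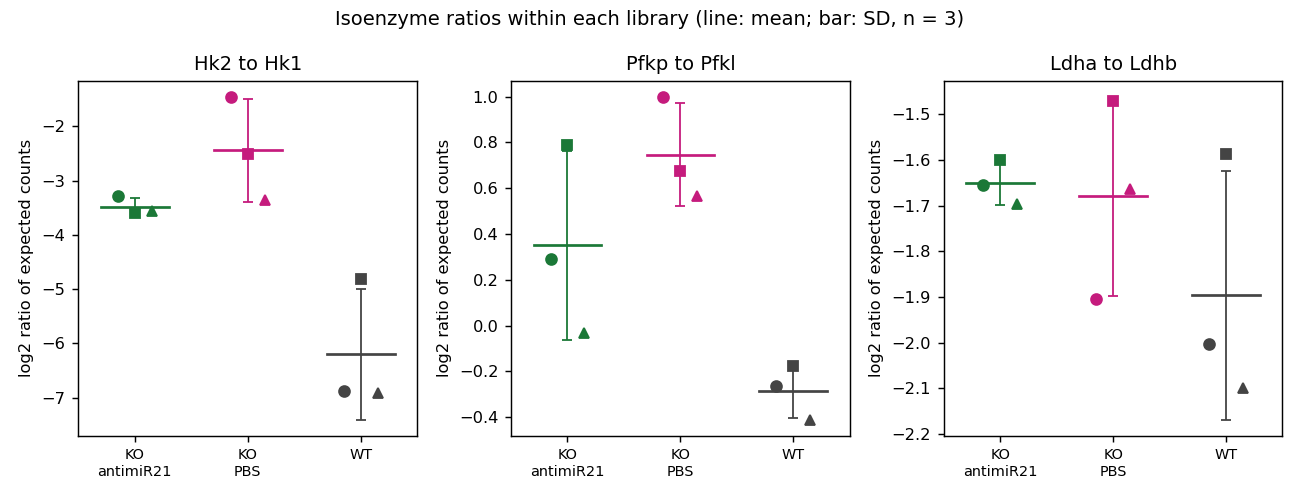
Log2 ratio of expected counts within each library (y axis) for Hk2 to Hk1, Pfkp to Pfkl and Ldha to Ldhb, with KO_antimiR21, KO_PBS and WT from left to right. Circles, squares and triangles are replicates 1, 2 and 3, lines are means and bars SD (n = 3). In the first 2 panels every knockout point is above every WT point, and in the third the groups overlap.

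The sequences around the starts of Hk2, Pfkp, Pfkl and Ldha are shown because Hk2 and the phosphofructokinase pair carry the differences above and Ldha has the most copies of the motif searched. Each runs 250 bases before to 50 bases after a RefSeq transcription start on GRCm38.p6, 5′ to 3′ on the strand of the gene. Capitals mark ACGTG or GCGTG on either strand (CACGT or CACGC when read on the opposite one), the core letters bound by hypoxia-inducible factors, which are known to act on glycolytic genes in low oxygen. Hk2 is at chr6:82774405-82774704 (minus strand), Pfkp at chr13:6648722-6649021 (minus strand), Pfkl at chr10:78009758-78010057 (minus strand) and Ldha at chr7:46845554-46845853 (plus strand).
Hk2: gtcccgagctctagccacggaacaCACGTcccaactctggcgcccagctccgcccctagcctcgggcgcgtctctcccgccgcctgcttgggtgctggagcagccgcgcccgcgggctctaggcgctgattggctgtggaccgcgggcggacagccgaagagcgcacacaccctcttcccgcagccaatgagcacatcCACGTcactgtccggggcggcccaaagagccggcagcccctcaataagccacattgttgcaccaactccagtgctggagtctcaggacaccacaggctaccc
Pfkp: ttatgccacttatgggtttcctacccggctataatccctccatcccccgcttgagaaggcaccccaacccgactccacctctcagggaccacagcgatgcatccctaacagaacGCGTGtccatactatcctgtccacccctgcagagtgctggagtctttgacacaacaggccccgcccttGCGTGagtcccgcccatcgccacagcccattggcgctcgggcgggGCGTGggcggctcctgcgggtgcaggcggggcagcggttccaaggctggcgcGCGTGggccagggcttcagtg
Pfkl: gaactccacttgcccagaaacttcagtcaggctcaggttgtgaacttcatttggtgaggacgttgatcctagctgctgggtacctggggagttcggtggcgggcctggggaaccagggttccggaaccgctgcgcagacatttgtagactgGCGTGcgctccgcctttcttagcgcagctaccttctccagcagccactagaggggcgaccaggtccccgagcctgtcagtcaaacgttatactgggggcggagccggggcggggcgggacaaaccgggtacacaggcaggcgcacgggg
Ldha: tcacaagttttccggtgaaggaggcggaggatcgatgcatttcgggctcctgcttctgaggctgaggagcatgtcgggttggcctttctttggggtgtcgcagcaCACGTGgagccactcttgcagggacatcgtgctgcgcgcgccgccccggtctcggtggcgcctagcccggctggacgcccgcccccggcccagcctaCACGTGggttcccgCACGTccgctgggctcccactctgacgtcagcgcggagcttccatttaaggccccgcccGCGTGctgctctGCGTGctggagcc
Hk2 has 2 copies of ACGTG, Pfkp has 4 of GCGTG, Pfkl has 1 of GCGTG, and Ldha has 5 of ACGTG and 2 of GCGTG. The 2 copies of CACGTG in Ldha are palindromes, so each holds ACGTG on both strands and is counted once a strand. RefSeq lists 17 start windows for the 10 members, and 14 hold at least 1 of the 2 motifs, against 43.8% of 32851 windows of the same length over all genes. These windows are 51.3% to 69.0% G and C, and the background was not matched for this. A different motif rich in G and C, GGGCGG, was in 10 of the 17, against 35.7% of all windows. The comparison therefore does not show an excess particular to the 2 motifs. Some windows of 1 gene overlap. Every window shown holds a motif, but some of those not shown do not. Ldha has a second window, not shown, with 0 copies of ACGTG and 2 of GCGTG. Pkm2 was called lower in KO_PBS over WT but is not shown, and its first window holds neither motif. The first windows of Hk1 and Aldoa hold neither as well. Hk2, which rose, and Pfkl, which fell, both hold the letters, and a match is a description of the window and not a bound site.

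Aldoa, the aldolase of muscle and most other tissues, was at 1138, 845 and 1041 CPM in KO_antimiR21 kidneys, 920, 898 and 852 CPM in KO_PBS kidneys and 1064, 1079 and 1248 CPM in WT kidneys. KO_PBS lay wholly below WT, and KO_antimiR21 2 was lower than any KO_PBS library. KO_PBS over WT was -0.34 ± 0.17 (adjusted p = 0.172), so the difference did not pass the test.

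Enolase 1 reads may lie in 2 rows. The row named Eno1 held only 33.7 to 92.3 expected counts a library, while the row EG433182 held 26507 to 34965. RefSeq lists both EG433182 and Eno1 among the synonyms of Eno1b, which it places on chromosome 18. The start windows of Eno1 itself are on chromosome 4, so EG433182 is listed as a separate locus. How the counting assigned reads between the 2 rows is not stated, and the Eno1 row alone is uncertain: it was 0.127% to 0.335% of both rows together. The EG433182 row was at 1028, 884 and 1069 CPM in KO_antimiR21 kidneys, 859, 917 and 997 CPM in KO_PBS kidneys and 1352, 1207 and 1406 CPM in WT kidneys. Both knockout groups lay wholly below WT. The 2 rows summed gave -0.52 ± 0.16 in KO_PBS over WT (adjusted p = 0.0439) and -0.41 ± 0.16 in KO_antimiR21 over WT (adjusted p = 0.186), whereas the Eno1 row alone gave -0.08 ± 0.34 and 0.01 ± 0.34. The EG433182 call (adjusted p = 0.0437) was lost when any of the 3 WT or the 3 KO_PBS libraries was left out (adjusted p = 0.0645 to 0.129), without KO_antimiR21 1 (0.0580) or KO_antimiR21 3 (0.0520), and with library size as the only scaling (-0.24, 0.265). It held in 5 of 21 alternatives, with adjusted p-values of 0.000498 to 0.428.

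Pkm makes the 2 splice forms PKM1 and PKM2, and the Pkm2 row counts the gene and not 1 form. Its values were 245, 323 and 347 CPM in KO_antimiR21 kidneys, 300, 324 and 294 CPM in KO_PBS kidneys and 568, 435 and 433 CPM in WT kidneys. Both knockout groups lay wholly below WT, at nearly the same mean. Pkm2 fell in KO_PBS over WT by 0.65 ± 0.18 on the log2 scale (adjusted p = 0.0298). KO_antimiR21 over WT was also -0.65 ± 0.18, with an adjusted p of 0.0663 that did not pass. KO_antimiR21 over KO_PBS was -0.0033 ± 0.18 (adjusted p = 0.999). The KO_PBS call was lost without WT 1 (-0.48, adjusted p = 0.101), without any 1 of the 3 KO_PBS libraries (0.0724 to 0.0884), with the library code as a covariate (0.0829) and with library size as the only scaling (-0.36, adjusted p = 0.173), and held in 12 of 22 alternatives with adjusted p-values of 0.00361 to 0.265.

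Ldha and Ldhb encode the muscle and heart subunits of lactate dehydrogenase, and both were the steadiest members across the 9 libraries, with an SD of log2 CPM of 0.14 for Ldha and 0.11 for Ldhb. Ldha was at 434, 416 and 405 CPM in KO_antimiR21 kidneys, 392, 449 and 460 CPM in KO_PBS kidneys and 389, 440 and 334 CPM in WT kidneys. Ldhb was at 1364, 1260 and 1312 CPM in KO_antimiR21 kidneys, 1470, 1244 and 1456 CPM in KO_PBS kidneys and 1561, 1323 and 1432 CPM in WT kidneys. All 3 groups overlapped for both genes. Ldha was 0.16 ± 0.15 (adjusted p = 0.484) and Ldhb -0.05 ± 0.16 (adjusted p = 0.862) in KO_PBS over WT. The Ldhb sign turned in 5 of 22 alternatives, among them scaling by library size only, and the Ldha sign in 1. The Ldha to Ldhb count ratio, 0.309 to 0.330 in KO_antimiR21, 0.267 to 0.361 in KO_PBS and 0.233 to 0.333 in WT, overlapped between all groups (exact permutation p = 0.3 in KO_PBS over WT and 0.4 in KO_antimiR21 over WT, 0.386 and 0.45 adjusted).

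**Figure D3:**
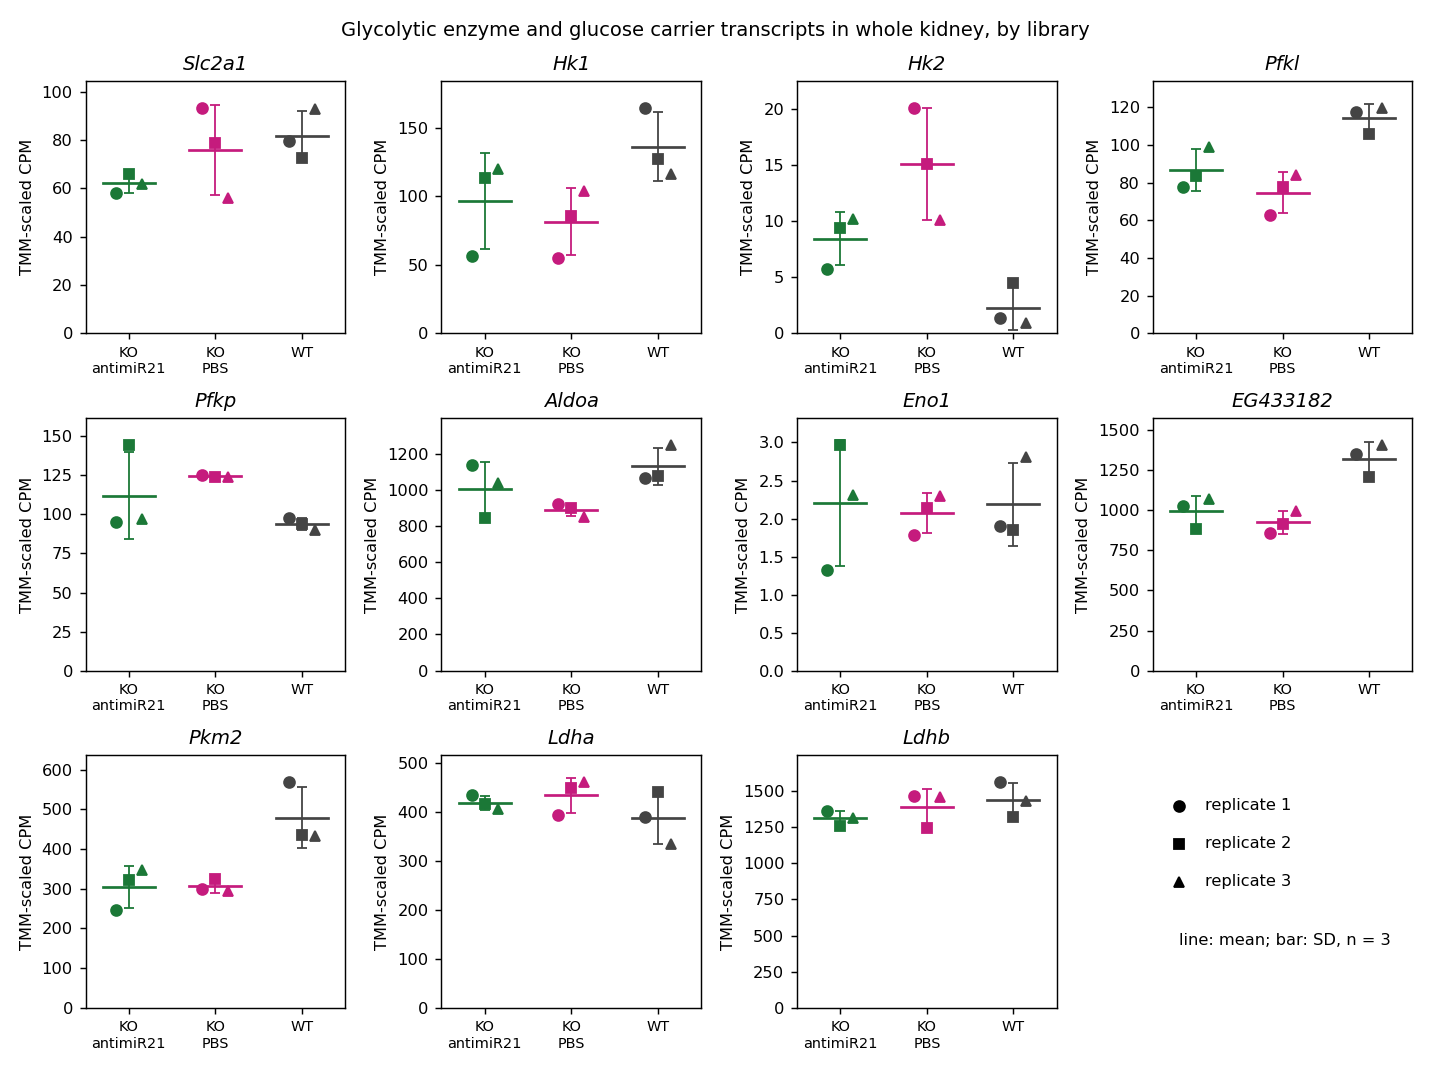
CPM scaled by TMM (y axis, from 0) of each member and of the EG433182 row, with KO_antimiR21, KO_PBS and WT from left to right; points are libraries, lines means and bars SD (n = 3). Hk2 is highest in KO_PBS and lowest in WT, while Pfkl, EG433182 and Pkm2 are lower in both knockout groups than in WT.

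Per kilobase of the longest principal transcript in GENCODE vM21 (the counting annotation is not stated), the order of levels in all 3 groups was Ldhb, Aldoa, the enolase rows together, Ldha and Pkm2, with Hk2 last. Ldhb averaged 1006 ± 39.8 CPM per kb in KO_antimiR21, 1066 ± 97.3 in KO_PBS and 1103 ± 91.3 in WT (SD, n = 3), and Hk2 averaged 1.53 ± 0.43, 2.74 ± 0.90 and 0.417 ± 0.353 CPM per kb in those groups. Pfkp, Hk1, Pfkl and Slc2a1 lay close together between them. Their order differed between groups: Pfkp was sixth in both knockout groups and ninth in WT, at 27.0 ± 6.74 CPM per kb in KO_antimiR21, 30.0 ± 0.19 in KO_PBS and 22.6 ± 0.95 in WT. In KO_antimiR21, Pfkp, Hk1 and Pfkl had overlapping ranges of mean ± SD, and Slc2a1 at 19.0 ± 1.17 CPM per kb lay within the range of Hk1 at 25.1 ± 9.11. In KO_PBS the ranges of Slc2a1, Hk1 and Pfkl overlapped, with Pfkp above them. In WT, Hk1 at 35.3 ± 6.50 and Pfkl at 30.6 ± 1.96 CPM per kb had overlapping ranges of mean ± SD, as did Slc2a1 at 25.04 ± 3.14 and Pfkp. Aldoa at 748 ± 67.7 and the enolase rows at 653 ± 50.9, and Ldha at 219.7 ± 30.1 and Pkm2 at 197 ± 31.8, overlapped in the same way in WT.

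The other glycolytic enzymes, a list of 15 tested genes, had 3 called higher and 4 lower in KO_PBS over WT, against 14.6% higher and 9.85% lower over all genes, and a median log2 fold change of -0.41 against -0.03 over all genes. Hk3, a hexokinase known from myeloid cells, rose to 2.84 ± 0.757 CPM in KO_PBS, against 0.473 ± 0.252 in WT (log2 fold change 2.57 ± 0.44, adjusted p = 0.00461). Aldoc, the brain type of aldolase, fell by 2.13 ± 0.37 on the log2 scale (adjusted p = 0.00463) and Pfkm, the muscle phosphofructokinase, fell by 1.01 ± 0.18 (adjusted p = 0.00588). Pgam2 and Pgk1 fell too, and Eno2 and Pklr rose. Pgam2, Pgk1, Eno2 and Pklr were named after their values were seen. The last 3 of these calls did not hold when some libraries were left out 1 at a time, while the estimates kept their sign. Pgk1 was lost without WT 1, KO_PBS 1 or KO_PBS 2 (adjusted p = 0.0623 to 0.0812), Eno2 without any 1 WT library or KO_PBS 1 (0.0529 to 0.0736) and Pklr without WT 3 or KO_PBS 2 (0.0600 and 0.0551). Gapdh, also chosen afterwards, was -0.49 ± 0.21 (adjusted p = 0.114).

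Of 19 glucose, lactate and pyruvate carriers, 2 were called higher and 8 lower in KO_PBS over WT, with a median of -0.55. Over all genes, 14.6% were higher and 9.85% lower, with a median of -0.03. Slc2a4, the insulin-regulated carrier GLUT4, fell to 17.9 ± 2.86 CPM in KO_PBS, against 66.3 ± 16.0 in WT (-1.89 ± 0.29, adjusted p = 0.0028). Slc16a7, a monocarboxylate carrier, fell to 16.0 ± 5.33 CPM in KO_PBS, against 84.4 ± 31.2 in WT (-2.40 ± 0.41, adjusted p = 0.00447). Slc2a3, the high-affinity carrier GLUT3, rose to 3.04 ± 0.301 CPM in KO_PBS, against 1.25 ± 0.184 in WT (1.28 ± 0.25, adjusted p = 0.00784). Both subunits of the mitochondrial pyruvate carrier, listed as Brp44 and Brp44l and named after their values were seen, fell by 0.99 ± 0.22 and 1.10 ± 0.23 on the log2 scale (adjusted p = 0.0122 and 0.0109).

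Of 8 gluconeogenesis genes, 3 were called lower and 1 higher in KO_PBS over WT, with a median of -1.21. Beside them, 9.85% of all genes were lower and 14.6% higher, with a median of -0.03. Pck1, the cytosolic enzyme that commits to glucose synthesis, fell to 670 ± 382 CPM in KO_PBS, against 3017 ± 814 in WT (-2.17 ± 0.53, adjusted p = 0.0196, and 0.0557 without WT 3). Slc37a4, the glucose 6-phosphate carrier of the endoplasmic reticulum, fell by 1.30 ± 0.32 (adjusted p = 0.0185, and 0.0534 without WT 3 or 0.0596 without KO_PBS 2). Pck2, the mitochondrial form of Pck1, rose by 0.92 ± 0.19 (adjusted p = 0.00983). Among 11 glycolysis regulators, 2 were higher and 4 lower, with a median of 0.19, against the same shares and median over all genes. The pyruvate dehydrogenase kinases Pdk1 and Pdk2 fell by 0.88 ± 0.19 and 1.23 ± 0.27, and the arrestin-like Arrdc4, which curbs glucose uptake, rose by 1.28 ± 0.24 (adjusted p = 0.0121, 0.0128 and 0.00614).

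Of 8 pentose phosphate genes, 2 were higher and 0 lower by edgeR, with a median of -0.09, which is near the 14.6% higher and 9.85% lower of all genes. Pgd, an NADPH-making dehydrogenase of that pathway, rose to 149 ± 7.43 CPM in KO_PBS, against 98.2 ± 3.78 in WT (0.60 ± 0.11, adjusted p = 0.00686), and H6pd, a hexose 6-phosphate dehydrogenase of the endoplasmic reticulum, rose by 0.83 ± 0.24 (adjusted p = 0.0331), a call lost when WT 1, WT 3, any KO_PBS library or KO_antimiR21 3 was left out (0.0540 to 0.112). Rpia, an isomerase, was -0.58 ± 0.19 (adjusted p = 0.0548), and was called lower by DESeq2 (0.0268) and without KO_antimiR21 1 (0.0370) or KO_antimiR21 2 (0.0164). Of 18 HIF and hypoxia genes, 2 were higher and 3 lower, also near the shares of all genes, with a median of -0.22. Myc, a growth regulator that also acts on glycolytic genes, rose to 45.0 ± 13.8 CPM in KO_PBS, against 5.66 ± 0.777 in WT (2.99 ± 0.28, adjusted p = 0.00135). Vegfa and Bnip3, well-known targets of hypoxia-inducible factors, fell by 1.13 ± 0.23 and 0.90 ± 0.18 (adjusted p = 0.01001 and 0.00833). The remaining calls of this list, named after their values were seen, went in both directions. P4ha2 was higher (0.66 ± 0.21, adjusted p = 0.0497), a call that held in 7 of 22 alternatives. Egln1 was lower (-0.66 ± 0.16, adjusted p = 0.0199), a call that held in 14 of 22.

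In KO_antimiR21 over KO_PBS, where edgeR called 0 genes in all, it called 0 genes of the 6 lists, with adjusted p-values from 0.707 up. The list medians there were 0.62 for gluconeogenesis, 0.26 for the regulators, 0.24 for the carriers, 0.10 for the other glycolytic enzymes, -0.01 for the HIF and hypoxia genes and -0.04 for the pentose phosphate genes, beside -0.01 over all genes. In KO_antimiR21 over WT, Hk3, Arrdc4, Pck2 and Myc were called higher and 0 genes of the 6 lists lower, against 6.72% and 0.427% of all genes. These 4 calls ended with the library code as a covariate, when edgeR called 0 genes in this comparison and 2031 had an unadjusted p under 0.05; all KO_antimiR21 libraries are L5 and all WT libraries L4. Myc was at 22.9 ± 5.55 CPM in KO_antimiR21 (2.02 ± 0.28, adjusted p = 0.00459) and Hk3 at 2.84 ± 0.882 CPM (2.57 ± 0.44, adjusted p = 0.00935).

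**Figure D4:**
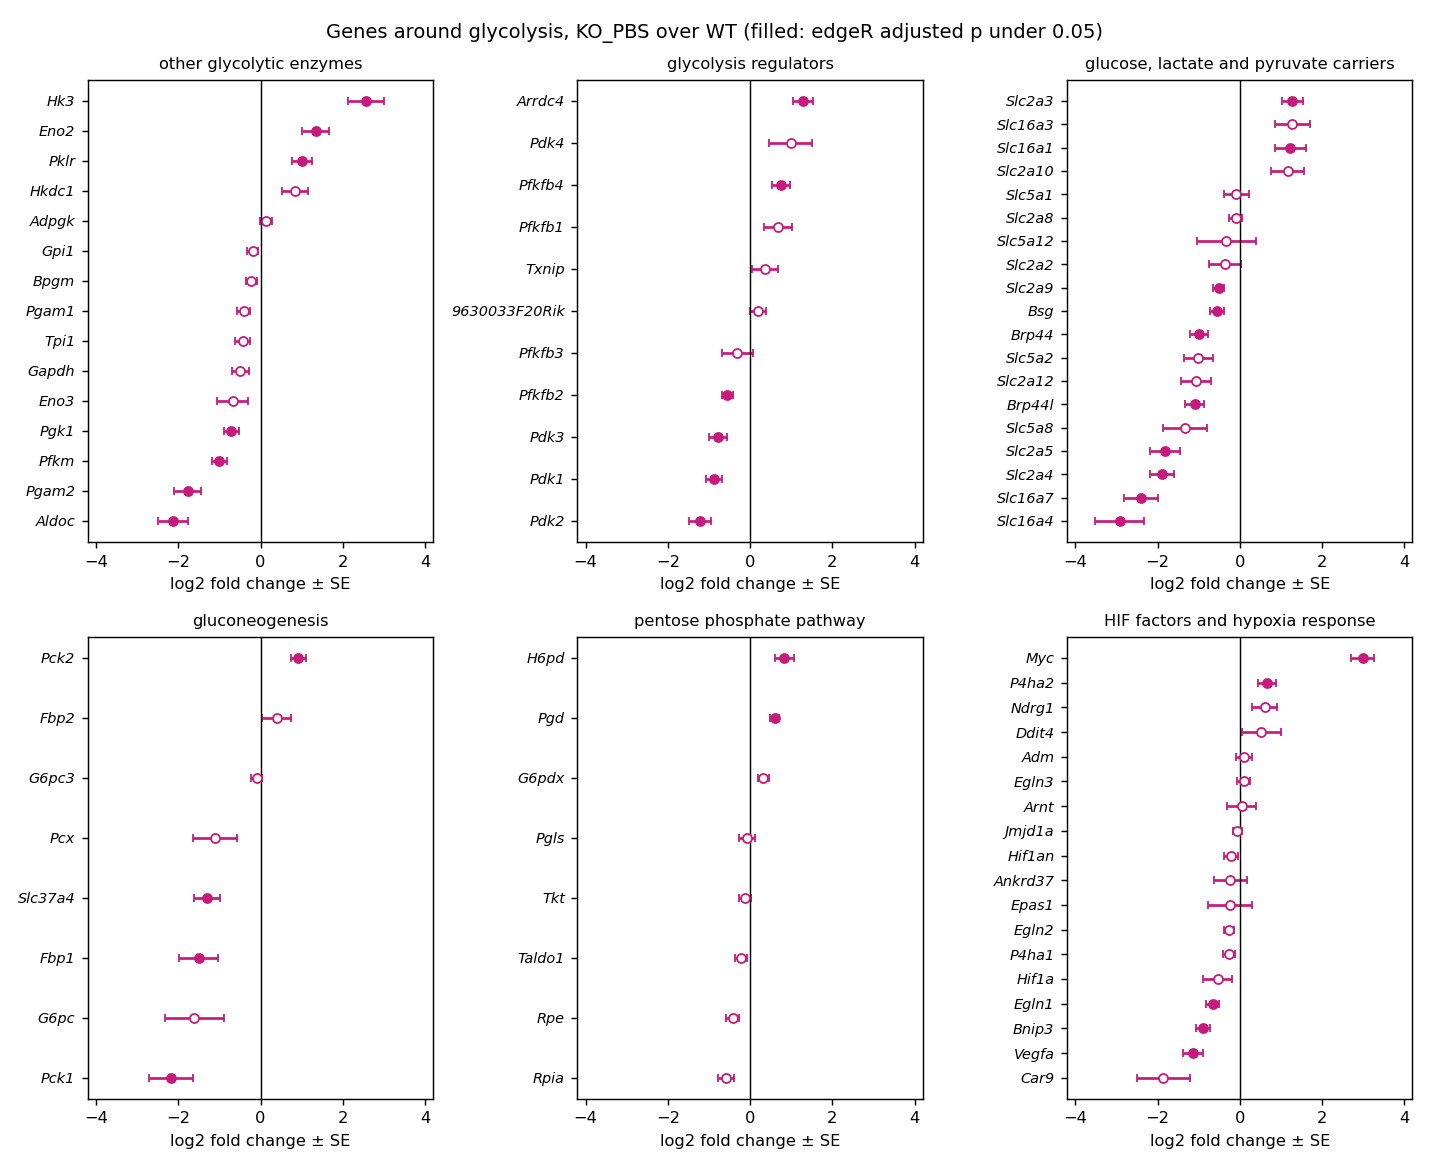
Log2 fold change of KO_PBS over WT (x axis, point, with its standard error as a bar) for every tested gene of 6 lists around glycolysis (y axis, sorted within each panel). Filled points passed an adjusted p of 0.05; most filled points of the carriers and of gluconeogenesis lie left of 0, and Myc, at 2.99, lies farthest right in its panel.

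Markers of cell types moved with these groups, and whole tissue cannot tell fewer cells of a type from less RNA per cell. The marker calls below are by edgeR in KO_PBS over WT, where 14.6% of all genes were higher and 9.85% lower. Summed proximal tubule markers were 6014 to 20652 CPM in KO_antimiR21 and 1827 to 9384 CPM in KO_PBS, against 20635 to 39356 CPM in WT, and 7 of 10 were called lower in KO_PBS over WT. The sums depend heavily on 1 marker, Kap, at 342 CPM in KO_PBS 1, 11628 CPM in KO_antimiR21 1 and 29919 CPM in WT 2. WT 2, the male WT library, gave the highest WT sum, 39356 CPM. In the female libraries WT 1 and WT 3, Kap was at 8301 and 8992 CPM. Kap itself was not called by edgeR in any comparison (adjusted p = 0.114 in KO_PBS over WT). Macrophage markers summed to 344 to 716 CPM in KO_antimiR21 and 718 to 924 CPM in KO_PBS, against 167 to 199 CPM in WT (7 of 8 higher in KO_PBS over WT), and fibroblast markers to 490 to 1218, 1973 to 2548 and 223 to 280 CPM in the same groups (6 of 6 higher). Proliferation markers were 122 to 198 CPM in KO_antimiR21 and 162 to 204 CPM in KO_PBS, against 24.6 to 35.7 CPM in WT (7 of 7 higher), and T cell markers were all 6 higher at 8.47 to 16.6, 11.3 to 17.0 and 3.78 to 3.93 CPM. Neutrophil markers had 2 of 3 tested higher, and Ngp was at 0 in WT. Loop of Henle and distal tubule markers had 4 of 7 lower and collecting duct markers 5 of 7, while podocyte and endothelial markers had 0 of 5 called by edgeR in either direction. Among B and plasma cell markers 1 of 4 was higher, at sums of 11.7 to 42.5 CPM in KO_antimiR21, 23.2 to 138 CPM in KO_PBS and 5.65 to 24.9 CPM in WT. Red blood cell markers had 2 of 3 lower in KO_PBS over WT and summed to 47.4 to 439 CPM in KO_antimiR21, 3.37 to 15.2 CPM in KO_PBS and 60.6 to 169.8 CPM in WT. KO_PBS 1 had the lowest proximal tubule sum and the highest Hk2, with the lowest Pfkl and Hk1. KO_antimiR21 1, with nearly as low an Hk1 and the lowest Pkm2 of all libraries, had a proximal tubule sum of 18289 CPM. Kap gave 11628 CPM of that sum, so it is a weak guide to the other proximal tubule markers. KO_antimiR21 2 had the lowest proximal tubule sum of its group and the highest Pfkp of all libraries. The part of these cell types in the member differences was not tested.

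For each member, the genes with the most similar pattern were found by the root mean square difference of mean-centred log2 CPM over the 9 libraries. For Hk2 the nearest were Tmem59l at 0.35 and Hp at 0.38, larger differences than for any other member. This measure grows with a gene's own spread, and the SD of log2 CPM was 1.46 for Hk2 and 0.53 for Hk1, the next. The larger difference therefore does not show that the Hk2 pattern was matched less well. Pfkl was closest to Btrc (0.05) and Abca2 (0.07), Pfkp to Clmn (0.06) and Mcph1 (0.07), and Pkm2 to Atp2c1 and Zbtb44 (0.10 each). The nearest were Syde2 for Hk1, Phb2 for Aldoa, Prrg3 for Eno1, Entpd7 for Ldha, Ptcd1 for Ldhb and Med30 for Slc2a1, at 0.04 to 0.14.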

How the data were processed

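Whole-kidney mRNA was measured in 9 libraries, 3 per group, grouped by the sample titles. The deposited expected counts per gene symbol were made with Bowtie and RSEM on mm9, per the submitters' processing notes; tool versions, annotation and strand are not stated there, and reads of overlapping or antisense genes cannot be told apart. The authors also deposited a log2 matrix, used in the limma alternative. Library preparation was from total RNA with the TruSeq v2 kit, per the labels' protocols. Expected counts were rounded, filtered with filterByExpr, scaled by TMM (factors 0.894 to 1.15) and tested with the edgeR 4.0.16 quasi-likelihood F test in 1 fit of 9 libraries (R 4.3.3), with Benjamini-Hochberg adjustment over 17315 genes at 0.05. CPM values are counts divided by the library total after TMM scaling, and errors of fold changes are SE. Isoenzyme ratios were log2 ratios of expected counts, compared by two-sided exact permutation tests. The fits were tested on simulated data. DESeq2 1.42.0, limma 3.58.1, other scalings and filters, left-out libraries, sex and library code were tried as alternatives. Sex was called from 4 Y-linked genes at a minimum of 10 CPM before TMM scaling. The members, the gene lists and the alternatives were chosen with earlier results of these data known. Named genes were all members, the 3 of each list with the lowest p in KO_PBS over WT and the 2 nearest in pattern to each member. A gene of the lists is not reported here and was left out of its list. Promoter windows are from RefSeq on GRCm38.p6, and no coordinates were used with the mm9 counts.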

Additional observations from a re-analysis of the deposited data

How the results depend on the processing

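Over the 640 fits of a member under an alternative, 566 kept their direction and side of the threshold, 18 lost a call, 8 gained one and 48 changed sign. Only Hk2, Pfkl and Pkm2 in KO_PBS over WT had a call to lose, so all 18 losses are theirs. Their calls held in 20, 16 and 12 of 22 alternatives. In none of the 22 alternatives did Hk2, Pfkl, Pfkp, Hk1 or Pkm2 change sign in KO_PBS over WT. The cause of the changes was not tested. Scaled by library size only, the median over all genes moved to 0.25 in KO_PBS over WT, to -0.14 in KO_antimiR21 over KO_PBS and to 0.11 in KO_antimiR21 over WT. In that setting 904 genes were lower in KO_PBS over WT, with 2 members higher and 0 lower, and 49 genes were lower in KO_antimiR21 over WT. Signs turned there for Slc2a1 (0.18), Eno1 (0.19) and Ldhb (0.23) in KO_PBS over WT, Eno1 (-0.020) and EG433182 (-0.032) in KO_antimiR21 over KO_PBS and Ldhb (0.014) in KO_antimiR21 over WT.

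With sex as a covariate, and with male libraries only, 0 genes and 0 members were called in either direction in KO_PBS over WT, and 0 genes in KO_antimiR21 over WT. With sex, Slc2a1 was 0.065, Eno1 0.17, Ldha -0.022 and Ldhb 0.071 in KO_PBS over WT, and Ldha -0.075 in KO_antimiR21 over WT. With males only, Slc2a1 was 0.093, Eno1 0.19 and Ldhb 0.098 in KO_PBS over WT, Pkm2 0.0015 in KO_antimiR21 over KO_PBS, and Ldha -0.042 and Ldhb 0.021 in KO_antimiR21 over WT. With the library code as a covariate, 1076 genes and 1 member were lower in KO_PBS over WT and 0 genes were called in KO_antimiR21 over WT. The code turned Slc2a1 to 0.074 in KO_PBS over WT. In KO_antimiR21 over KO_PBS it turned Slc2a1 to 0.15, Hk1 to -0.10, Eno1 to -0.061, Pkm2 to 0.052 and EG433182 to -0.0049, and in KO_antimiR21 over WT it turned Slc2a1 to 0.22, Eno1 to -0.22 and Ldha to -0.021. Libraries of code L4 alone gave 1 member lower and Slc2a1 at 0.084 in KO_PBS over WT, and could give no value for KO_antimiR21.

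DESeq2 called 6 genes higher and 12 lower in KO_antimiR21 over KO_PBS, and in KO_antimiR21 over WT 394 genes lower with 1 member higher and 1 lower. The limma fit called 1 member higher in KO_antimiR21 over WT and put Eno1 at -0.033 there. With only the 2 groups compared, 2 members were higher in KO_PBS over WT, 696 genes were higher and 11 lower in KO_antimiR21 over WT, and Pkm2 was 0.0026 in KO_antimiR21 over KO_PBS. Without a filter on low counts Pkm2 was 0.014 there. The 2 enolase rows summed, an alternative chosen after seeing the data, gave -0.41 in KO_antimiR21 over WT. With the replicate block, 1129 genes and 1 member were lower in KO_PBS over WT, 42 genes were lower in KO_antimiR21 over WT and Eno1 was -0.025 there; Pkm2 had an adjusted p of 0.0746 in KO_PBS over WT. Same-numbered libraries correlated at -0.37 to 0.17 in KO_PBS and WT, -0.09 to 0.44 in KO_antimiR21 and KO_PBS and -0.25 to 0.03 in KO_antimiR21 and WT. In these comparisons 2, 2 and 0 of 6 correlated best with their own number, so no pairing by replicate number was seen. With 3 libraries per group, this check cannot exclude it.

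Leaving out 1 library at a time gave 667 to 1855 genes lower, 1 to 2 members higher and 0 to 2 members lower in KO_PBS over WT, and 651 to 1467 genes higher, 2 to 158 lower and 0 to 1 members higher in KO_antimiR21 over WT. The Ldha to Ldhb difference in KO_antimiR21 over KO_PBS ran from -0.083 to 0.13. Signs turned within those ranges for Eno1 (-0.17 to 0.12), Ldhb (-0.10 to 0.034) and Slc2a1 (-0.28 to 0.060) in KO_PBS over WT, for Eno1 (-0.16 to 0.35), Pkm2 (-0.084 to 0.13) and Ldha (-0.098 to 0.023) in KO_antimiR21 over KO_PBS and for Eno1 (-0.24 to 0.27) in KO_antimiR21 over WT. The Eno1 row, at 33.7 to 92.3 expected counts a library, and Hk2 in WT, at 24 to 113, are the members that depth limits most.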
